A study of Mus musculus with 20 samples.

Results

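The respiratory chain genes examined here are the 95 nuclear genes of the deposited table whose symbols name subunits or assembly factors of the mitochondrial respiratory complexes, ATP synthase or cytochrome c. They were taken by symbol from the 14793 genes of the table (Nduf, Sdha to Sdhd, Uqcr, Cox4 to Cox8, Atp5, Cyc1 and Cycs). They comprised 37 complex I subunits, 8 complex I assembly factors, 4 genes of complex II, 9 of complex III, 19 of complex IV, 17 of complex V (ATP synthase), and Cycs, which encodes cytochrome c. Genes encoded on mitochondrial DNA, which the same rule would have taken, were not analysed here, so the nuclear and mitochondrial arms could not be compared. Symbols are those of the table, where Atp5a1, Atp5b, Atp5g2 and Atp5l are now called Atp5f1a, Atp5f1b, Atp5mc2 and Atp5mg.

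The respiratory chain passes electrons from NADH (complex I) and succinate (complex II) through complex III and cytochrome c to oxygen at complex IV, and ATP synthase uses the resulting proton gradient to make ATP. Several complex IV subunits exist as isoform pairs, with Cox6a2, Cox7a1 and Cox8b known as the heart and skeletal muscle isoforms and Cox6a1, Cox7a2 and Cox8a as the isoforms of most other tissues. Skeletal muscle fibers are rich in mitochondria, whereas cartilage relies largely on glycolysis, so the makeup of a dissected joint could bear on the level of these transcripts.

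Bulk RNA sequencing was performed on the right knee joints of 20 male C57BL/6Nci mice, all with surgical destabilization of the medial meniscus. Per the study, the mice were operated at 12 weeks of age. Control mice (CTRL) received needle insertion alone, and the other groups received adipose-derived mesenchymal stromal cells that were non-activated (MSC) or activated for 2 h with 10 µg/mL of the TLR3 agonist polyinosinic-polycytidylic acid (TLR3-MSC) or of the STING agonist 2′3′cGAMP (STING-MSC). Injections were given at weeks 3 and 5 after surgery with cells from pooled age-matched male donors, and 5 joints per group were sequenced. The tissue held cartilage, synovium, capsule and subchondral bone together. Collection is placed at 8 weeks after surgery in the methods and 24 h after injection elsewhere in the study, so the time since injection is uncertain. Each joint yielded 27955496 to 52529973 reads on the genes of the table. Values below are normalized counts, that is, reads divided by a size factor for each library. In MSC replicate 5, 239 of the genes of the table were at 0 that were above 0 everywhere else, but none of the 95 genes was at 0 in this or any other joint, and the lowest value was 53.6.

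The upstream sequences of members of the isoform pairs and of Cycs are shown because these genes carry the contrasts described below. They are the 250 bases before the annotated start in RefSeq (GRCm38.p6), written in the direction of transcription, with capitals marking the motifs searched for.
Cox7a1, chr7:30183921-30184170, strand +: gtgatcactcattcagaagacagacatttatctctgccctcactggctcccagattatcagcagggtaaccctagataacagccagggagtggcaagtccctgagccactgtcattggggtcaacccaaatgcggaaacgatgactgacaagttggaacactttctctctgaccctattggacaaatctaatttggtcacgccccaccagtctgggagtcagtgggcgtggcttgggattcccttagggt
Cox7a2, chr9:79759854-79760103, strand -: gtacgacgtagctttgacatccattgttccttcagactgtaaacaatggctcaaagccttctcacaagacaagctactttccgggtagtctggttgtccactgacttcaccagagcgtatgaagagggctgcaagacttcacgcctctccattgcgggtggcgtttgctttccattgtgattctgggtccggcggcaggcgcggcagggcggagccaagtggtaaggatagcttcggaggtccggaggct
Cox8b, chr7:140900447-140900696, strand -: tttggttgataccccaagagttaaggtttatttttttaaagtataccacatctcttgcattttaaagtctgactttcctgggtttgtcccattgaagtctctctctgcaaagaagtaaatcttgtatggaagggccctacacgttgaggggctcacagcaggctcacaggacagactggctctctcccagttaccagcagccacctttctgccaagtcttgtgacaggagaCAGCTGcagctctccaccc
Cox8a, chr19:7217617-7217866, strand -: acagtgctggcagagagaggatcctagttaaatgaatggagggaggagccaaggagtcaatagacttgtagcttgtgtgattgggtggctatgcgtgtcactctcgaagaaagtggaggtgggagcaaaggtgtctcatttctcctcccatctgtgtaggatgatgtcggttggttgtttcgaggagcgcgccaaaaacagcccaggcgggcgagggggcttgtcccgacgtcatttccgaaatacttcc
Cox6a1, chr5:115348959-115349208, strand -: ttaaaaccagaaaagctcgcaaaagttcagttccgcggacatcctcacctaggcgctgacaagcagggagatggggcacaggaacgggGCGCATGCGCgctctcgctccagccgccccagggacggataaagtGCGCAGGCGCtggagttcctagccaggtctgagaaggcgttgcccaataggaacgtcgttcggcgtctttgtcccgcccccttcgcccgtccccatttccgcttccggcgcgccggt
Cycs, chr6:50566570-50566819, strand -: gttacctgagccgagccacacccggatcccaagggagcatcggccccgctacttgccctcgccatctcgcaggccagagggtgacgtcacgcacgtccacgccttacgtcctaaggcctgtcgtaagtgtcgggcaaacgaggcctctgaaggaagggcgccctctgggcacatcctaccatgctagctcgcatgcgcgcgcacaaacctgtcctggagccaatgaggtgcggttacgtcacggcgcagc
The capitals mark 2 NRF1 motifs (GCGCA and GCGC separated by 1 base of any kind) in Cox6a1 and an E-box of the kind bound by myogenic factors (CAGCTG) in Cox8b. Cox7a1 and Cox8b held 4 and 1 CpG dinucleotides in this window, compared to 14 in Cox7a2, 11 in Cox8a, 26 in Cox6a1 and 23 in Cycs. RefSeq promoters were matched for 77 of the 95 genes. Cox6a2, Cox4i2 and Ndufa4l2 were among the 18 that were not matched. On either strand, the NRF1 motif was present in 13 of 77 (16.9%), compared to 7.46% of the 11641 matched genes of the table and 3.87% of all 27025 promoters. The ERR motif (AAGGTCA) was present in 5 of 77 (6.49%, compared to 2.74% of the table), the E-box in 6 (7.79%, compared to 12.1%), a TATA box (TATAAA) in 6 (7.79%, compared to 7.22%), the ETS motif (CCGGAAGT) in 3 (3.90%, compared to 5.29%) and the YY1 motif (AAGATGGC) in 0 (compared to 1.79%). These are letter matches and were not tested as binding sites.

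The 95 genes together took 0.988% to 1.67% of all normalized counts in a joint. Mean counts ranged from 90.8 for Atp5g2, which encodes an isoform of the ATP synthase c subunit, to 51461 for Atp5b, which encodes the catalytic beta subunit. Per kilobase of the canonical transcript, Atp5b (26719), Atp5e (26146), Atp5a1 (16808) and Cox4i1 (16456) had the highest mean levels. Among the lowest were Ndufb2 (27.9), Atp5g2 (124) and Cox4i2 (152), and Atp5o had no length to divide by. The level of Ndufb2 depends on its long annotated transcript (4389 bases, compared to 731 for Atp5g2 and 759 for Cox4i2). How reads shared with processed copies were counted is not given in the sources used here, so levels of genes with such copies (Cox5b and Cox5b-ps, for example) are uncertain.

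The design first asks whether joints receiving MSC, TLR3-MSC or STING-MSC differed in these transcripts from control joints and from each other. No respiratory chain gene changed at an FDR of at most 0.05 in any of the 6 comparisons of groups, and in each comparison 0 of 95 reached an unadjusted p of 0.05 in limma. Of all genes tested, 0.00676% passed the FDR for MSC compared to CTRL and 0% in the other comparisons. The share of all genes tested with an unadjusted p of at most 0.05 was 8.55% for MSC compared to CTRL, 3.58% for TLR3-MSC compared to CTRL, 12.2% for STING-MSC compared to CTRL, 3.88% for TLR3-MSC compared to MSC, 4.94% for STING-MSC compared to MSC and 2.57% for STING-MSC compared to TLR3-MSC. edgeR and DESeq2, fitted to the recovered reads, likewise called 0 of the 95 genes in each comparison at either threshold. Between-group differences made up a median of 4.40% of the variance of a respiratory chain gene, compared to 15.0% over all genes tested. The median within-group SD of the 95 genes was 0.30 on the log2 scale, compared to 0.26 for all genes tested.

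The median log2 fold change of the 95 genes compared to CTRL was 0.00 after MSC, -0.08 after TLR3-MSC and -0.03 after STING-MSC (all genes tested, -0.04, -0.01 and 0.01). It was -0.10 for TLR3-MSC and -0.05 for STING-MSC compared to MSC, and 0.05 for STING-MSC compared to TLR3-MSC (all genes tested, 0.03, 0.02 and 0.02). Of the 95 genes, 80 lay below 0 in TLR3-MSC compared to CTRL (84.2%, all genes tested 52.1%), 78 in TLR3-MSC compared to MSC (82.1%, all genes tested 42.6%) and 15 in STING-MSC compared to TLR3-MSC (15.8%, all genes tested 44.7%). In the other comparisons 48.4% (MSC compared to CTRL, all genes tested 57.7%), 64.2% (STING-MSC compared to CTRL, 48.3%) and 63.2% (STING-MSC compared to MSC, 44.5%) lay below 0. Of 21 skeletal muscle markers, 20 lay below 0 in TLR3-MSC compared to CTRL and 4 in TLR3-MSC compared to MSC. In STING-MSC compared to TLR3-MSC, 1 did. Their median log2 fold changes were -0.20, 0.19 and 0.26, and 0 reached an unadjusted p of 0.05 (limma). Of 13 genes of the tricarboxylic acid cycle, 13, 1 and 0 lay below 0 in the same comparisons. The part of muscle RNA in these counts was not tested. With edgeR the 80, 78 and 15 respiratory chain genes became 65, 80 and 29, and the median for STING-MSC compared to TLR3-MSC became 0.03. For MSC compared to CTRL, 46 of the 95 genes lay below 0 in the main fit, 33 with edgeR and 27 with library total scaling. The medians were 0.00, 0.04 and 0.07, where those of all genes tested were -0.04, -0.01 and 0.03. The 95 genes varied together across joints, and the comparisons share joints. Without TLR3-MSC replicate 1 the medians for TLR3-MSC compared to CTRL and to MSC moved above 0, to 0.01 and 0.03, and without replicate 3 they moved to -0.18 and -0.20. The median deviation of the 95 genes from their own means was 0.47 in STING-MSC replicate 2 and -0.25 to 0.00 in the other STING-MSC joints. In MSC joints it ranged from -0.36 to 0.43. Medians without these joints are not given here. The direction for STING-MSC compared to CTRL and to TLR3-MSC, and for MSC compared to CTRL, may therefore rest on single joints. The 95% interval of a single gene had a median half-width of 0.37 on the log2 scale. A 2-fold difference lay outside the interval for 91 to 94 of the 95 genes, depending on the comparison. It did so for 11890 to 12553 of all 14793 genes tested.

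**Figure D1:**
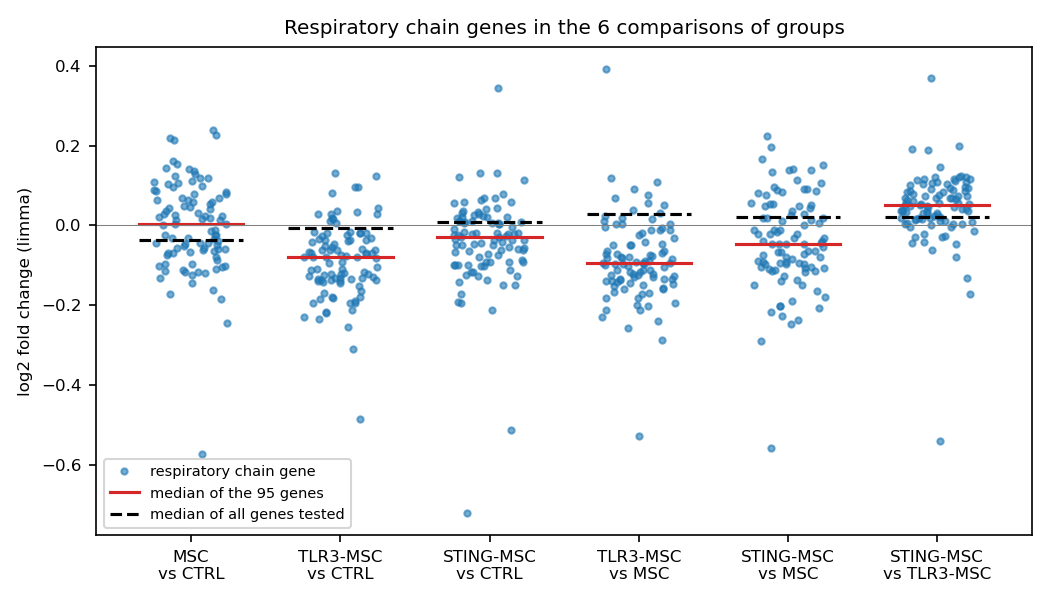
Log2 fold change of each of the 95 respiratory chain genes (points) in the 6 comparisons of groups, with the median of the 95 genes (solid line) and of all genes tested (dashed line). The medians of the 95 genes lie between -0.10 and 0.05, and no point passed an FDR of 0.05.

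The 3 members ranked first by p in each comparison belonged to complexes I, IV and V. Cox4i2, the isoform of the Cox4 subunit known from lung and hypoxic cells, appeared in 4 of the 6 comparisons. Its normalized counts were 92.1, 106, 183, 221 and 83.7 in CTRL joints, 144, 152, 113, 86.5 and 181 in MSC, 148, 99.5, 53.6, 63.2 and 122 in TLR3-MSC, and 89.2, 69.7, 130, 94.95 and 72.0 in STING-MSC. Values of every group overlapped. The log2 fold change was -0.51 for STING-MSC compared to CTRL (95% interval -1.17 to 0.14, FDR = 0.517 from limma) and -0.56 compared to MSC (-1.21 to 0.10, FDR = 0.938 from limma). For TLR3-MSC it was -0.48 compared to CTRL (FDR = 1.00 from limma) and -0.53 compared to MSC (FDR = 0.978 from limma). The usual isoform Cox4i1 had 9140 to 17073, and the per-kilobase ratio of Cox4i2 to Cox4i1 was 0.0035 to 0.020 over the 20 joints.

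Ndufa4l2, a relative of the complex IV subunit Ndufa4 that is known to respond to hypoxia, was the most variable of the 95 genes, with an 11.1-fold range. Its counts were 622, 866, 1216, 1475 and 527 in CTRL, 586, 1818, 502, 164 and 796 in MSC, 521, 816, 571, 660 and 1703 in TLR3-MSC, and 728, 681, 504, 711 and 236 in STING-MSC. Thus the highest and the lowest value both came from MSC joints. The log2 fold change for STING-MSC compared to CTRL was -0.72 (95% interval -1.76 to 0.32, FDR = 0.571 from limma).

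Cox6b2, a complex IV isoform known from testis, had 673, 521, 508, 385 and 767 in CTRL, 661, 475, 794, 832 and 385 in MSC, 703, 470, 408, 730 and 492 in TLR3-MSC, and 708, 612, 709, 691 and 821 in STING-MSC. STING-MSC joints were less scattered than the others and exceeded every control joint in 1 of 5. The log2 fold change was 0.34 compared to CTRL (FDR = 0.537 from limma) and 0.37 compared to TLR3-MSC (FDR = 0.890 from limma).

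The ATP synthase gene Atp5l, encoding the g subunit of the membrane sector, had the smallest unadjusted p of any of these genes (0.0657 from limma, TLR3-MSC compared to MSC). Its counts were 208, 175, 186, 202 and 220 in TLR3-MSC and 217, 225, 244, 265 and 220 in MSC, compared to 209, 228, 229, 174 and 254 in CTRL and 210, 287, 208, 195 and 242 in STING-MSC. In TLR3-MSC, 4 of 5 joints lay below every MSC joint, with a log2 fold change of -0.24 (95% interval -0.50 to 0.02, FDR = 0.978 from limma). The exact permutation test on the same joints gave an unadjusted, two-sided p of 0.0238. Atp5l was named for its small p, so this value is not separate support. For Ndufb2, an accessory subunit of complex I, STING-MSC joints had 105, 131, 90.7, 119 and 110 and MSC joints 107.9, 156, 143, 131 and 141. These groups overlapped, with a log2 fold change of -0.29 (FDR = 0.938 from limma). The other genes named by the rule for smallest p were Atp5g2 (0.23, MSC compared to CTRL), Cox8a (0.12, MSC compared to CTRL), Ndufaf3 and Ndufb10 (-0.11 and -0.19, TLR3-MSC compared to CTRL) and Ndufa11 (-0.29, TLR3-MSC compared to MSC), on the log2 scale. Over all 4 groups, the F test of the genes fixed for their roles gave an FDR of 0.836 for Cox4i2 and 0.880 to 0.993 for the other 21, among them Sdha, Sdhb, Uqcrc1, Cyc1 and Atp5b (limma).

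Although the groups did not differ detectably, the joints differed from each other, and most of the 95 genes moved together. The median deviation of the 95 genes from their own means was -0.06, 0.21, -0.02, -0.14 and 0.17 in CTRL joints on the log2 scale, and -0.28, 0.01, -0.36, 0.34 and 0.43 in MSC joints. It was -0.48, -0.05, 0.37, -0.07 and -0.02 in TLR3-MSC joints and 0.00, 0.47, -0.15, -0.06 and -0.25 in STING-MSC joints. Each group thus held joints above and below the mean, and the group means of this value were 0.03 ± 0.15 in CTRL, 0.03 ± 0.36 in MSC, -0.05 ± 0.30 in TLR3-MSC and 0.00 ± 0.28 in STING-MSC (SD, n = 5). STING-MSC replicate 2 was the highest of the 20 joints for 49 of the 95 genes and MSC replicate 5 for 27, whereas TLR3-MSC replicate 1 was the lowest for 68. The range between the highest and the lowest joint was a median of 2.02-fold over the 95 genes, compared to 1.97-fold over all genes.

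**Figure D2:**
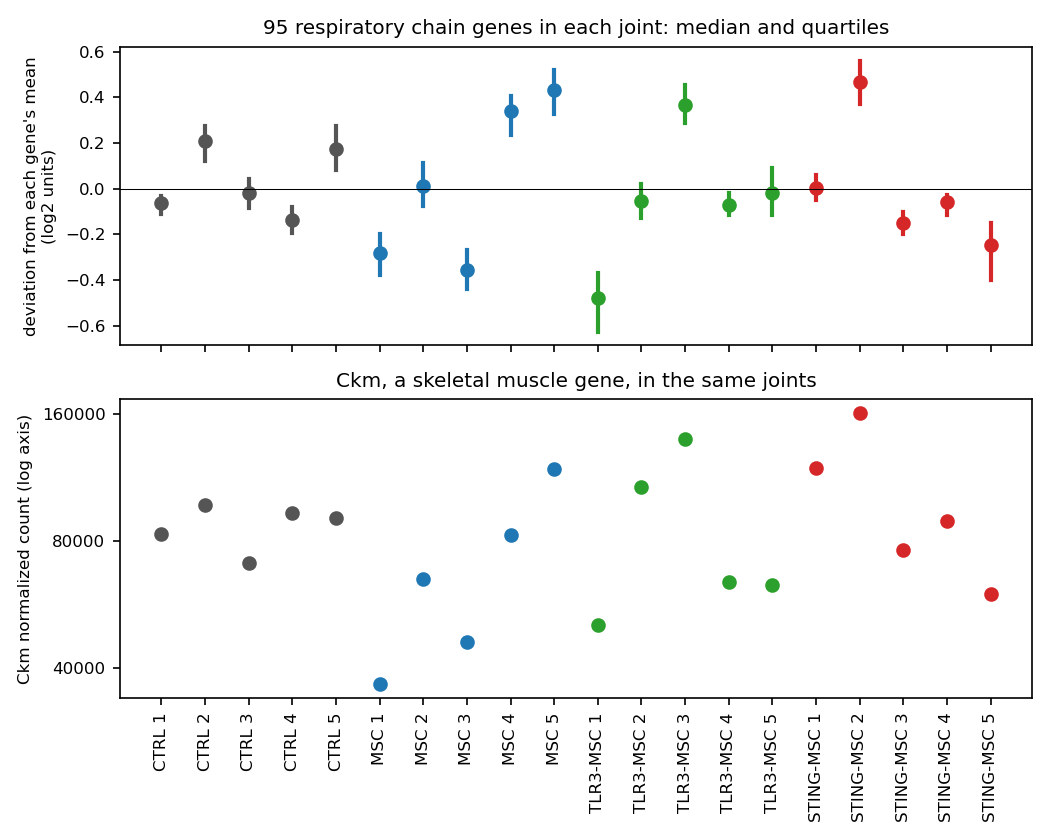
Upper panel, median (points) and quartiles (bars) of the deviation of the 95 genes from their own means in each joint, in log2 units, and lower panel, the Ckm normalized count in the same joints on a log axis. STING-MSC 2 is highest in both panels, and MSC 1, MSC 3 and TLR3-MSC 1 are the 3 lowest in both.

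**Figure D3:**
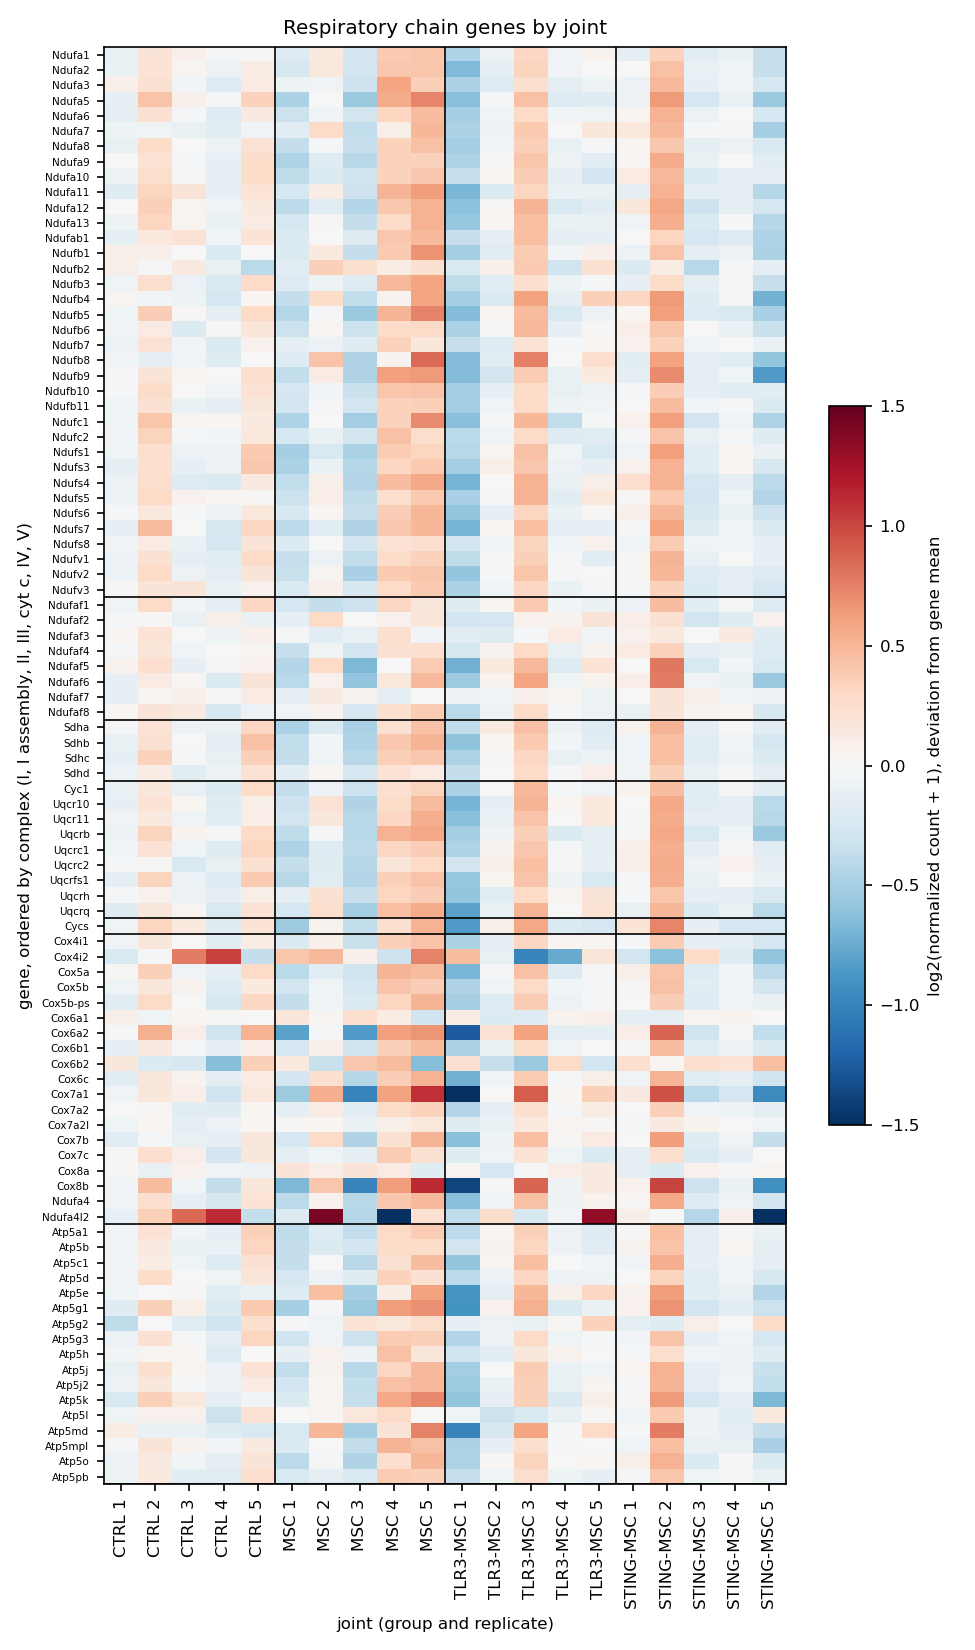
Deviation of each of 94 genes from its own mean (log2 units, color) in the 20 joints (columns), with genes ordered by complex (rows) and lines between complexes and groups. Columns such as STING-MSC 2 and MSC 5 are raised, and TLR3-MSC 1 lowered, across nearly all complexes, with Cox6a1, Cox8a, Cox6b2, Cox4i2 and Ndufa4l2 standing apart.

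Complex I illustrates this pattern. Ndufs1, a core subunit that holds iron-sulfur clusters of the electron path, had 4916, 6114, 4850, 4862 and 6718 in CTRL joints, 3644, 4368, 3689, 6681 and 6416 in MSC, 3854, 5269, 6974, 4914 and 4394 in TLR3-MSC, and 4956, 7859, 4579, 5236 and 4782 in STING-MSC. The highest and the lowest joints all belonged to treated groups, with control joints between them. Sdha, the catalytic subunit of complex II, had 15768, 18540, 15159, 15127 and 19888 in CTRL, 11483, 13745, 11403, 18813 and 21694 in MSC, 12437, 17646, 21799, 15083 and 13965 in TLR3-MSC, and 16654, 22751, 14408, 16033 and 14223 in STING-MSC. MSC replicates 1 and 3 and TLR3-MSC replicate 1 were the lowest 3 joints, and STING-MSC replicate 2 the highest, for both genes. Cytochrome c (Cycs) ranged from 343 in TLR3-MSC replicate 1 to 1026 in STING-MSC replicate 2, with a median of 618.

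The joints also differed in skeletal muscle transcripts. Ckm, which encodes muscle creatine kinase, had 82954, 97275, 71142, 93097 and 90780 in CTRL joints, 36688, 64966, 46134, 82917 and 118268 in MSC, 50485, 107422, 139855, 63998 and 62875 in TLR3-MSC, and 119111, 160906, 76050, 89145 and 60089 in STING-MSC. Its group means were 87050 ± 10306, 69794 ± 32408, 84927 ± 37529 and 101060 ± 39854 (SD, n = 5), and no comparison of groups passed for Ckm (log2 fold change 0.57 for STING-MSC compared to MSC, FDR = 0.938 from limma). Of 22 muscle markers listed, 21 were measured and none was at 0 in any joint. Their summed counts ranged from 1303600 in MSC replicate 1 to 5275320 in STING-MSC replicate 2, and the most abundant was Myh4, a fast myosin heavy chain, with a mean of 794458. In whole tissue, fewer cells of a type and less RNA per cell cannot be told apart.

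The change of each gene with log2 Ckm was therefore fitted within groups (limma, FDR over 14792 genes), an analysis chosen after the values were seen. Of the 95 genes, 84 rose with Ckm, 3 fell and 8 did not pass, compared to 18.5% of all genes tested that rose and 22.3% that fell. The median slope was 0.47 log2 units per doubling of Ckm, compared to -0.03 for all genes tested. By role, 36 of 37 complex I subunits, 5 of 8 complex I assembly factors, 4 of 4 genes of complex II, 9 of 9 of complex III, 14 of 19 of complex IV and 15 of 17 of complex V rose. Ckm and these genes share each library and its size factor, and what set the amount of muscle RNA in a joint was not tested. With Acta1 (skeletal muscle actin), Myh4 or the mean of 21 muscle markers in place of Ckm, 84, 83 and 84 genes rose, and with any 1 joint left out 82 to 84 rose. The median slope of the 95 genes was 0.47, 0.44 and 0.44 with these measures, and 0.45 to 0.49 with 1 joint left out. Shares of all genes tested that rose are not given here for these fits. Within single groups, without a test, a slope above 0 was found for 76 of 95 genes in CTRL, 91 in MSC, 87 in TLR3-MSC and 90 in STING-MSC. Shares of all genes with a slope above 0 in single groups are not given here. The 95 genes varied together, so these counts are not separate observations. The slopes differed between groups at an unadjusted p of at most 0.05 for 0 of the 95 genes (limma, 1.75% of all genes tested).

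**Figure D4:**
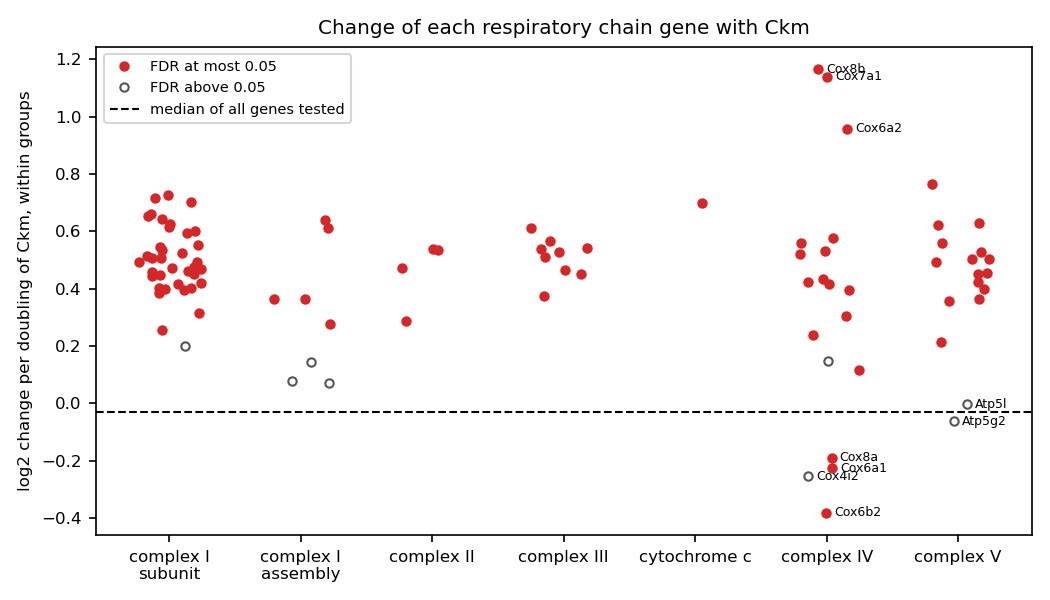
Log2 change of each of the 95 genes per doubling of Ckm within groups, by complex, with filled points at an FDR of at most 0.05 and open points above it. Most genes lie above the dashed median of all genes tested (-0.03), the muscle isoforms Cox8b, Cox7a1 and Cox6a2 lie highest, and Cox8a, Cox6a1 and Cox6b2 lie below 0 and pass, with Cox4i2, Atp5g2 and Atp5l below 0 without passing.

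Among complex I subunits the slopes were highest for Ndufa5 (0.73), Ndufb5 (0.72) and Ndufc1 (0.70), all accessory subunits. The core subunits Ndufs1 and Ndufv1 had slopes of 0.53 (SE 0.08) and 0.44 (SE 0.06). Of the complex I assembly factors, Ndufaf6 (0.64) and Ndufaf5 (0.61) rose, while Ndufaf2 (0.14), Ndufaf3 (0.08) and Ndufaf7 (0.07) did not pass. Succinate dehydrogenase genes Sdha and Sdhb had slopes of 0.53 and 0.54. In complex III, the core protein Uqcrc1 (0.51), the Rieske protein Uqcrfs1 (0.54) and cytochrome c1 (Cyc1, 0.47) rose, as did Cycs (0.70, SE 0.08). In ATP synthase, Atp5g1, an isoform of the c subunit, had the highest slope (0.77), the alpha and beta subunits Atp5a1 and Atp5b had 0.45 and 0.40, and the c-subunit isoform Atp5g2 (-0.06) and Atp5l (0.00) did not pass. Ndufb2 (0.20), Cox4i2 (-0.25) and Ndufa4l2 (0.15) did not pass either.

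Complex IV was divided by isoform. The heart and muscle isoform Cox6a2 (chromosome 7, 127804607 to 127805560, GRCm39) had 6964, 10298, 7641, 5767 and 10203 in CTRL joints, 4077, 7002, 3941, 10906 and 11236 in MSC, 2989, 8227, 10804, 6477 and 6425 in TLR3-MSC, and 7587, 13052, 5770, 6979 and 5512 in STING-MSC. Its partner Cox6a1 (chromosome 5, 115483701 to 115487041) had 7431, 6728, 7132, 7097 and 6995 in CTRL, 7944, 7235, 8374, 7555 and 5701 in MSC, 7569, 6062, 6131, 7260 and 7401 in TLR3-MSC, and 6332, 6353, 7237, 7274 and 7052 in STING-MSC. The joints with the least Cox6a2 were among those with the most Cox6a1. Cox6a2 rose with Ckm by 0.96 log2 units per doubling (SE 0.13, FDR = 1.27e-05 from limma) and Cox6a1 fell by 0.23 (SE 0.04, FDR = 0.000257 from limma). The per-kilobase ratio of Cox6a2 to Cox6a1 ranged from 0.332 in TLR3-MSC replicate 1 to 1.73 in STING-MSC replicate 2, with a median of 0.809.

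Cox8b (chromosome 7, 140478858 to 140480360) and Cox8a (chromosome 19, 7192518 to 7194982) behaved in the same way. Cox8b had 3915, 5554, 3886, 3133 and 4512 in CTRL, 2510, 5295, 2027, 6205 and 8724 in MSC, 1548, 4073, 7341, 3808 and 4407 in TLR3-MSC, and 4180, 8126, 3233, 3737 and 2114 in STING-MSC. Cox8a had 4723, 4324, 4887, 4504 and 4401 in CTRL, 5329, 4992, 5352, 5078 and 4121 in MSC, 4793, 3881, 4625, 4983 and 5119 in TLR3-MSC, and 4262, 4047, 4882, 4610 and 4800 in STING-MSC. Cox8b thus spanned 5.63-fold and Cox8a only 1.38-fold. Cox8b rose by 1.17 log2 units per doubling of Ckm (SE 0.15, FDR = 9.71e-06 from limma) and Cox8a fell by 0.19 (SE 0.04, FDR = 0.00186 from limma). The per-kilobase ratio of the pair ranged from 0.0848 to 0.556, a level that depends on the long annotated transcript of Cox8b (2149 bases, compared to 564 for Cox8a).

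The third pair differed in that both members rose with Ckm. Cox7a1 (chromosome 7, 29883569 to 29885504) had 2637, 3077, 2928, 2221 and 3052 in CTRL, 1889, 3985, 1356, 4144 and 5829 in MSC, 899, 2732, 5113, 2784 and 3504 in TLR3-MSC, and 3000, 5273, 2060, 2284 and 1409 in STING-MSC. Its partner Cox7a2 (chromosome 9, 79662643 to 79667161) ranged from 2972 to 5189, with a median of 4000. Cox7a1 rose by 1.14 log2 units per doubling of Ckm (SE 0.18, FDR = 9.11e-05 from limma) and Cox7a2 by 0.30 (SE 0.06, FDR = 0.000798 from limma). The related Cox7a2l, a factor of supercomplex assembly, had a slope of 0.12 and the smallest range of the 95 genes (1.26-fold). Cox6b2 fell with Ckm (-0.38, SE 0.14, FDR = 0.0352 from limma), while its partner Cox6b1 rose (0.42, SE 0.06). With quantile normalization Cox6b2 did not pass, although its slope was steeper (-0.51, FDR = 0.0966 from limma), and with scaling to library totals it passed (-0.51, FDR = 0.0236 from limma). Cox6a1 and Cox8a fell under both scalings, with steeper slopes. With quantile normalization they were -0.37 and -0.31, where the median slope of all genes tested was -0.07. With scaling to library totals they were -0.37 and -0.33, where it was -0.16.

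**Figure D5:**
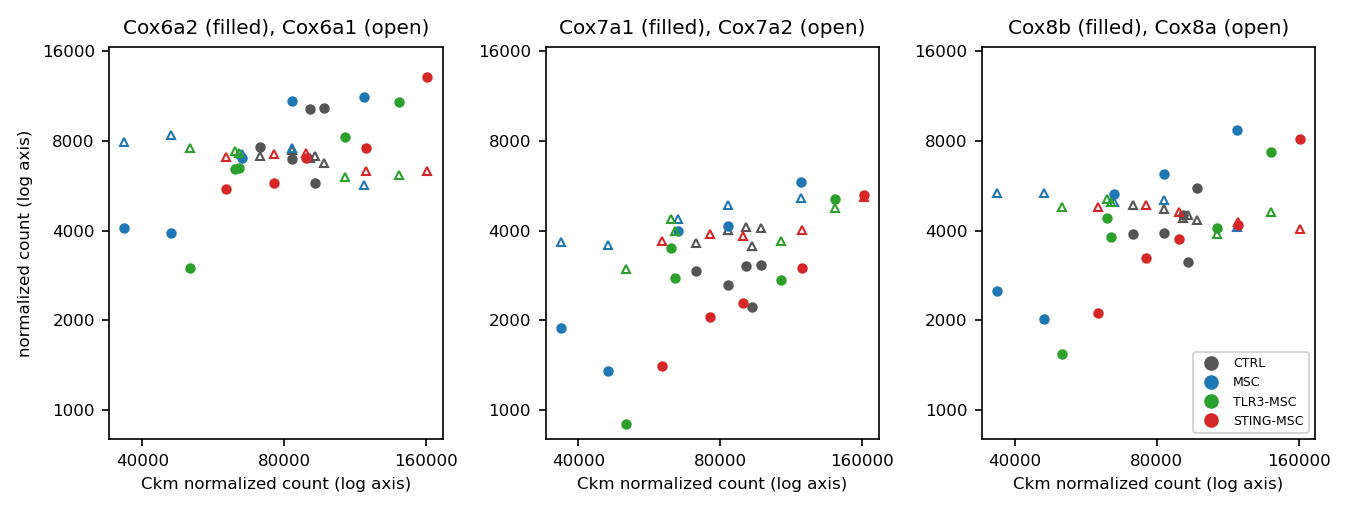
Normalized counts of 3 complex IV isoform pairs (log axis) against Ckm (log axis) in the 20 joints, with muscle isoforms as filled circles, partners as open triangles and groups by color. Cox6a2, Cox7a1 and Cox8b climb with Ckm in every panel, whereas Cox6a1 and Cox8a decline slightly and Cox7a2 climbs less steeply.

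After subtraction of group means, the correlation with log2 Ckm over the 20 joints was r = 0.87 (rho = 0.85) for Cox6a2, r = 0.83 (rho = 0.76) for Cox7a1 and r = 0.88 (rho = 0.81) for Cox8b. The permutation p was 1e-05 for each r, the smallest that 100000 resamples can give, and 1e-05, 0.0002 and 8e-05 for rho (adjusted over the 3 genes, 1e-05 for each r and 3e-05, 0.0002 and 0.00012 for rho). Without the joints farthest from the median of Ckm (MSC replicate 1 and STING-MSC replicate 2), r was 0.84, 0.80 and 0.85. For the partners, added after the values were seen, r was -0.85 for Cox6a1 (rho = -0.86), 0.79 for Cox7a2 (rho = 0.72) and -0.79 for Cox8a (rho = -0.84), with permutation p of 1e-05, 6e-05 and 3e-05 for r and 1e-05, 0.0004 and 1e-05 for rho. Adjusted over these 3 genes, p was 3e-05, 6e-05 and 4.5e-05 for r and 1.5e-05, 0.0004 and 1.5e-05 for rho, and r without the same joints was -0.86, 0.73 and -0.76. Between groups, Cox6a2, Cox7a1 and Cox8b gave log2 fold changes of -0.11, -0.12 and -0.09 for STING-MSC compared to CTRL, with an F test FDR over 4 groups of 0.946, 0.981 and 0.989 (limma).

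Other mitochondrial gene lists were read in the same fit of slopes. All 13 genes of the tricarboxylic acid cycle rose with Ckm (median slope 0.47), among them citrate synthase (Cs, 0.51) and Ogdh (0.47), and 16 of 19 genes of fatty acid oxidation rose (median 0.34) while 1 fell. Of 40 assembly factors of complexes II to V, 28 rose and 0 fell. Of 77 mitochondrial ribosomal proteins 42 rose (median 0.19), and of 28 genes that replicate, transcribe or process mitochondrial DNA and its RNA 10 rose, including Tfam (0.14). Among 14 nuclear regulators of respiratory genes, 7 rose, including the coactivator Ppargc1a (0.98) and Esrrg (0.97), and 5 fell, including Nrf1 (-0.26) and Gabpb1 (-0.28). Of the adenine nucleotide carriers, Slc25a4, the muscle form, rose by 0.97 (SE 0.08) and the widely expressed Slc25a5 fell by 0.28 (SE 0.04). For comparison, 19 of 20 muscle markers other than Ckm rose, and of 95 cytosolic ribosomal proteins 4 rose (4.21%) and 27 fell (28.4%), while 18.5% of all genes tested rose and 22.3% fell.

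Markers of several other cell types fell where the respiratory chain genes rose, and their part in the result was not tested. Of 10 neutrophil markers 9 fell with Ckm, of 8 erythroid markers 7 fell, of 11 cartilage markers 7 fell and of 9 B-lineage markers 5 fell, compared to 22.3% of all genes tested. Of 9 macrophage markers 2 fell. Of 10 adipocyte markers 2 rose, of 6 endothelial markers 1 rose and of 5 brown fat markers 3 rose (Cox7a1, Cox8b and Ppargc1a), compared to 18.5% of all genes tested. Hbb-bs, the most abundant erythroid marker, fell by 0.43 (SE 0.14) per doubling of Ckm, and the summed erythroid counts ranged from 912827 to 1971240 over the 20 joints. The most abundant neutrophil marker was S100a9 (mean 185112), and the summed neutrophil counts ranged from 396035 to 965423. Cartilage markers, led by Col2a1 (mean 33265), summed to 17310 to 193117. Of 10 bone markers 1 fell, and of 8 synovial fibroblast markers 1 rose. Brown fat also expresses Cox7a1 and Cox8b, and its defining genes Ucp1 and Elovl3 were not analysed here.

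When log2 Ckm was added to the model of the groups as a covariate, also chosen after the values were seen, more respiratory chain genes reached an unadjusted p of 0.05 between groups. Of the 95 genes, 36 were higher in MSC than in CTRL (5.52% of all genes tested), 45 were lower in TLR3-MSC than in MSC (4.42%) and 67 were lower in STING-MSC than in MSC (8.61%), with 0, 0 and 1 in the other direction. None of the 95 passed an FDR of 0.05, and the smallest was 0.0699 for STING-MSC compared to MSC (limma). The median log2 fold changes at equal Ckm were 0.19, -0.22 and -0.29, compared to 0.00, -0.10 and -0.05 without the covariate. Ckm itself differed by -0.43, 0.30 and 0.57 between the same groups, and none of these differences passed (FDR = 0.713, 0.978 and 0.938 from limma), so the adjusted values rest in large part on differences in Ckm between groups that did not pass. Without the covariate, all 10 neutrophil markers lay above 0 in MSC, TLR3-MSC and STING-MSC compared to CTRL, with median log2 fold changes of 0.53, 0.28 and 0.49. Of the 10, 7, 1 and 8 reached an unadjusted p of 0.05 (8.55%, 3.58% and 12.2% of all genes tested) and none an FDR of 0.05 (limma). All 10 adipocyte markers also lay above 0 in these 3 comparisons, with medians of 0.28, 0.74 and 0.57, and 0, 2 and 0 reached such a p. Of 6 endothelial markers, 5, 6 and 5 lay below 0, with medians of -0.20, -0.35 and -0.50, and 0, 1 and 3 reached such a p. None of the markers of either cell type passed an FDR of 0.05 (limma). The part of these 3 cell types in the counts of respiratory chain genes was not tested. With log2 Ckm in the model, 0 and 8 of the 95 genes had such a p for TLR3-MSC and STING-MSC compared to CTRL (5.48% and 21.5% of all genes tested), and 2 did for STING-MSC compared to TLR3-MSC (11%). MSC replicate 5 and STING-MSC replicate 1, for example, had Ckm counts of 118268 and 119111, with 8724 and 4180 for Cox8b and 5829 and 3000 for Cox7a1.

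These counts depended on the muscle measure and on single joints. With the mean of 21 muscle markers as the covariate they were 14 (5.55% of all genes tested in the same direction), 21 (2.99%) and 46 (3.75%), and the median log2 fold changes were 0.11, -0.13 and -0.18. With Ckm as the covariate and 1 joint left out, the count for MSC compared to CTRL ranged from 11 (without CTRL replicate 4, 4.2% of all genes tested in the same direction) to 48 (without MSC replicate 3, 5.41%). The count for TLR3-MSC compared to MSC ranged from 20 (without TLR3-MSC replicate 1, 2.81%) to 64 (without TLR3-MSC replicate 5, 5.54%). The count for STING-MSC compared to MSC ranged from 50 (without MSC replicate 4, 14.8%) to 70 (without CTRL replicate 4, 8.8%). For STING-MSC compared to CTRL, 7 of the 95 genes were lower with all joints, where 9.84% of all genes tested were. The count was 3 without CTRL replicate 2 (8.81% of all genes tested) and 20 without CTRL replicate 4 (5.63%). For STING-MSC compared to TLR3-MSC, 1 was lower with all joints (4.49%) and 8 without TLR3-MSC replicate 2 (3.81%). Without TLR3-MSC replicate 5, 15 of the 95 genes and 205 of all genes tested (1.39%) passed an FDR of 0.05 for STING-MSC compared to MSC, where with all joints 0 of the 95 and 10 of all genes passed. Without MSC replicate 4, 1 of the 95 genes and 292 of all genes tested (1.97%) passed in the same comparison. The 95 genes varied together, so these counts do not stand for that many separate observations.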

How the data were processed

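RNA from 20 joints was sequenced after poly(A) selection. Per the study, the authors filtered reads in Partek Flow, aligned them to GRCm39 with STAR (version 2.7.3a), counted them per gene with HTSeq and named DESeq2. The deposited values are a normalized signal, reads divided by a median-ratio size factor. Each joint's values were whole multiples of 1 step (within 0.1 of a whole number for 99.8% to 99.9% of values), from which reads were recovered for edgeR (version 4.0.16) and DESeq2 (version 1.42.0). The main test was limma (version 3.58.1, R 4.3.3, trend) on log2(normalized count + 1) over all 20 joints, with FDR over 14793 genes. This scale understates changes of low genes. A minimum mean count of 5 removed 0 genes. Named genes were the 3 with the smallest p per comparison and 22 genes fixed for their role, of which Atpif1 lies outside the symbol rule and 1 is not reported here by itself. The members and lists were chosen with earlier results of these data known. On simulated counts for STING-MSC compared to CTRL (14793 genes), limma recovered 97.0% of 200 genes changed 4-fold, with 9 false calls, and the slope fit recovered 92.5% of 200 genes, with 16. Recovery of differences smaller than 4-fold was not tested. The slope given to the 200 genes is not stated here, and recovery at the median slope of the 95 genes (0.47) was not tested. Nothing states that same-numbered joints are paired. Whether strand was used in counting is not given in the sources used here, so overlapping genes are uncertain. Each joint was a separate mouse, and every pair of joints within a group differed by more than sampling noise (chi-square per gene of at least 24.1).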

Additional observations from a re-analysis of the deposited data

Results flagged for a closer look

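Of 120 groups of 5 joints checked for 1 joint far from the other 4, 13 held such a joint. The rule nominally flags about 1 in 20 for independent, normally distributed values. The share flagged over all genes is not given here, so no excess is read from the count. In 11 of the 13 the joint was STING-MSC replicate 2, which also had the highest Ckm count (160906). It stood above the other STING-MSC joints for the complex I genes Ndufs1 (7859, others 4579 to 5236), Ndufv1 (9259, others 5957 to 6577), Ndufb10 (5757, others 3999 to 4389) and Ndufa11 (1385, others 714 to 873). The same held for Sdha (22751, others 14223 to 16654), Sdhb (8176, others 5020 to 5746) and the complex III gene Uqcrfs1 (9906, others 6329 to 6819). In complexes IV and V it held for Cox6a2 (13052, others 5512 to 7587), Cox7a2 (5189, others 3682 to 4016), Ndufa4 (10001, others 5568 to 6826) and Atp5a1 (56107, others 36909 to 41073). The other flags were both in TLR3-MSC replicate 5, for Atp5g2 (114, others 82.6 to 91.1) and Ndufa4l2 (1703, others 521 to 816). These genes vary together, so the flags of a single joint are not separate observations, and their cause was not tested.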

How the results depend on the processing

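No alternative made a respiratory chain gene pass an FDR of 0.05 between groups among those planned (other pseudocounts, a higher minimum, only the groups compared, quantile or library total scaling, edgeR, DESeq2, each joint left out, a replicate block), and no named gene changed direction. Counts of genes at an unadjusted p of at most 0.05, each 0 in the main analysis, became 1 for MSC compared to CTRL with quantile normalization and with library total scaling, 1 for TLR3-MSC compared to MSC with quantile normalization, 1 for STING-MSC compared to MSC with only those groups or library total scaling, and 1 for STING-MSC compared to TLR3-MSC with only those groups. Leaving out 1 joint gave 0 to 1 for MSC compared to CTRL and TLR3-MSC compared to MSC, and 0 to 2 (without MSC replicate 5) for STING-MSC compared to MSC. In the main analysis 2.57% to 12.2% of all genes tested reached such a p. Shares of all genes tested under these alternatives are not given here, so nothing about the 95 genes is read from these counts. With log2 Ckm as a covariate the counts were 36 (MSC compared to CTRL), 8 (STING-MSC compared to CTRL), 45 (TLR3-MSC compared to MSC), 68 (STING-MSC compared to MSC) and 2 (STING-MSC compared to TLR3-MSC). With the mean of muscle markers they were 14, 4, 21 and 46 for the first 4, and 1 for TLR3-MSC compared to CTRL. The 4 were lower (6.87% of all genes tested) and the 1 higher (3.02%). The cause of these shifts was not tested. Of 95 genes, 81 rose with Ckm under quantile normalization and 79 under library total scaling. The median slope of the 95 genes was 0.60 and 0.41 under these scalings, compared to -0.07 and -0.16 for all genes tested (-0.03 in the main fit). The shares of all genes tested that rose under these scalings are not given here. Replicate numbers are shared between groups but did not pair the joints by the rule that every pair correlate above 0.1: 1 to 4 of 5 same-numbered pairs did so (4 for TLR3-MSC compared to MSC, where the lowest r was -0.42), the mean r was -0.14 to 0.11, and 1 of 20 joints correlated best with its own number. With the number as a replicate block, the count stayed at 0 in all 6 comparisons and the median log2 fold change for TLR3-MSC compared to MSC was -0.10. Planned results on mitochondrially encoded genes, and scaling without them, were not run because these genes were not analysed here.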

Other observations

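Outside the respiratory chain genes, other mitochondrial outer and inner membrane carriers were read for their change with Ckm, chosen after their values were seen. Of the voltage-dependent anion channels, Vdac1 had a slope of 0.74 (SE 0.07), Vdac3 0.52 (SE 0.06) and Vdac2 0.24 (SE 0.05) log2 units per doubling of Ckm. The uncoupling protein genes went in opposite directions, with Ucp3 at 0.83 (SE 0.22) and Ucp2 at -0.41 (SE 0.11). The phosphate carrier Slc25a3 had 0.38 (SE 0.06). Atpif1, the inhibitor of ATP synthase, had -0.19 (SE 0.13) and did not pass (FDR = 0.263 from limma).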
